A study of Homo sapiens with 4 samples.

Results

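Glycolysis splits glucose into pyruvate in the cytosol, and tumour cells often send much of that pyruvate on to lactate. When oxygen is short, prolyl hydroxylases of the EGLN family stop marking the HIF alpha subunits for destruction, and the stabilised factor switches on glucose transporters, glycolytic enzymes and genes for acid export, vessel growth and mitochondrial turnover. The glycolytic and HIF-induced genes therefore overlap, but some HIF targets are induced far more steeply than the enzymes, which every growing cell needs. The 34 genes described here were chosen by name from both sides of this overlap, and all 34 were found among the 20024 genes of the deposited tables. They comprise 4 transporters of glucose or lactate, 17 enzymes of the pathway from hexokinase to lactate dehydrogenase, 3 regulatory kinases, 9 HIF-induced genes that are not part of glycolysis, and HIF1A, the gene of an oxygen-regulated HIF alpha subunit.

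RNA-seq was done on SJSA-1, an established human osteosarcoma line, in 2 libraries with knockdown of the zinc finger transcription factor ZNF217 and in 2 control libraries. Both groups are the same line and no further treatment is named. Not given in the sources used here are the knockdown reagent, the treatment of the controls and the oxygen level of the cultures. The labels do not tie the replicates to separate cultures, and p-values therefore reflect the spread between these libraries alone, which may be technical.

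The knockdown libraries held 24428774 and 23217521 counts and the control libraries 21466327 and 24487126. ZNF217 was measured at 37.6 and 31.9 CPM (reads scaled to a common library size) in knockdown, against 66.2 and 73.4 CPM in control, the direction the labels state. This gave a log2 fold change of −1.01 (standard error 0.20, adjusted p = 0.207 by edgeR and 0.00879 by DESeq2). Of the markers of the line, CDK4 was at 354 and 376 TPM (a level scaled for gene length as well as for depth) in knockdown, against 380 TPM in control 1 and 165 TPM in control 2, and MDM2 was also lowest in control 2, at 6.37 TPM against 9.31 to 11.6 TPM in the others. The part of this in the results below was not tested. SPARC, a bone matrix protein, lay between 693 and 900.5 TPM, VIM between 1574 and 2383 TPM, the osteoblast factor RUNX2 between 4.60 and 6.68 TPM and COL1A1 between 1.21 and 4.84 TPM, while COL1A2, a bone collagen chain, had 0 to 4 counts. Among 10 markers of epithelial, endothelial and blood cells, 9 had 0 to 21 counts, while the keratin KRT8 lay between 311 and 414 TPM. The biological coefficient of variation was 0.0776 between the knockdown libraries and 0.393 between the controls, so the controls were the less alike pair. Control 2 also had the fewest detected genes, 14536 against 14857 to 15298 in the other libraries.

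No member passed the test for a difference between knockdown and control. Of 12965 genes tested with edgeR's quasi-likelihood test, 0% were called higher and 0% lower at an adjusted p under 0.05, so 0 calls among the 33 members tested say nothing in particular about these genes. At an unadjusted p under 0.05, 1 member was higher and 0 were lower, where 6.61% and 6.42% of all tested genes were. DESeq2 called 0 members, where it called 1.68% of all genes higher and 2.12% lower. For 3 members (EGLN3, PKM and ALDOC) the lower knockdown library still exceeded both controls, beside 25.4% of all tested genes. ALDOC was tested only because its knockdown libraries passed the low-count filter. Both knockdown libraries were below both controls for 7 members (SLC16A3, HK2, PFKM, PGK1, ENO1, PFKFB3 and ANKRD37), beside 22.9% of all tested genes. The position of ENO1 depends on the scaling, since its log2 fold change is −0.02 here and 0.09 with plain total counts. In TPM, which carries no such scaling, the groups also overlap for HK2, PFKM and ENO1. Conversely, in TPM both knockdown libraries lay above both controls for TPI1 and GPI, and below both for HK1. For 13 members both knockdown libraries lay between the controls, beside 30.4% of all tested genes.

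**Figure D1:**
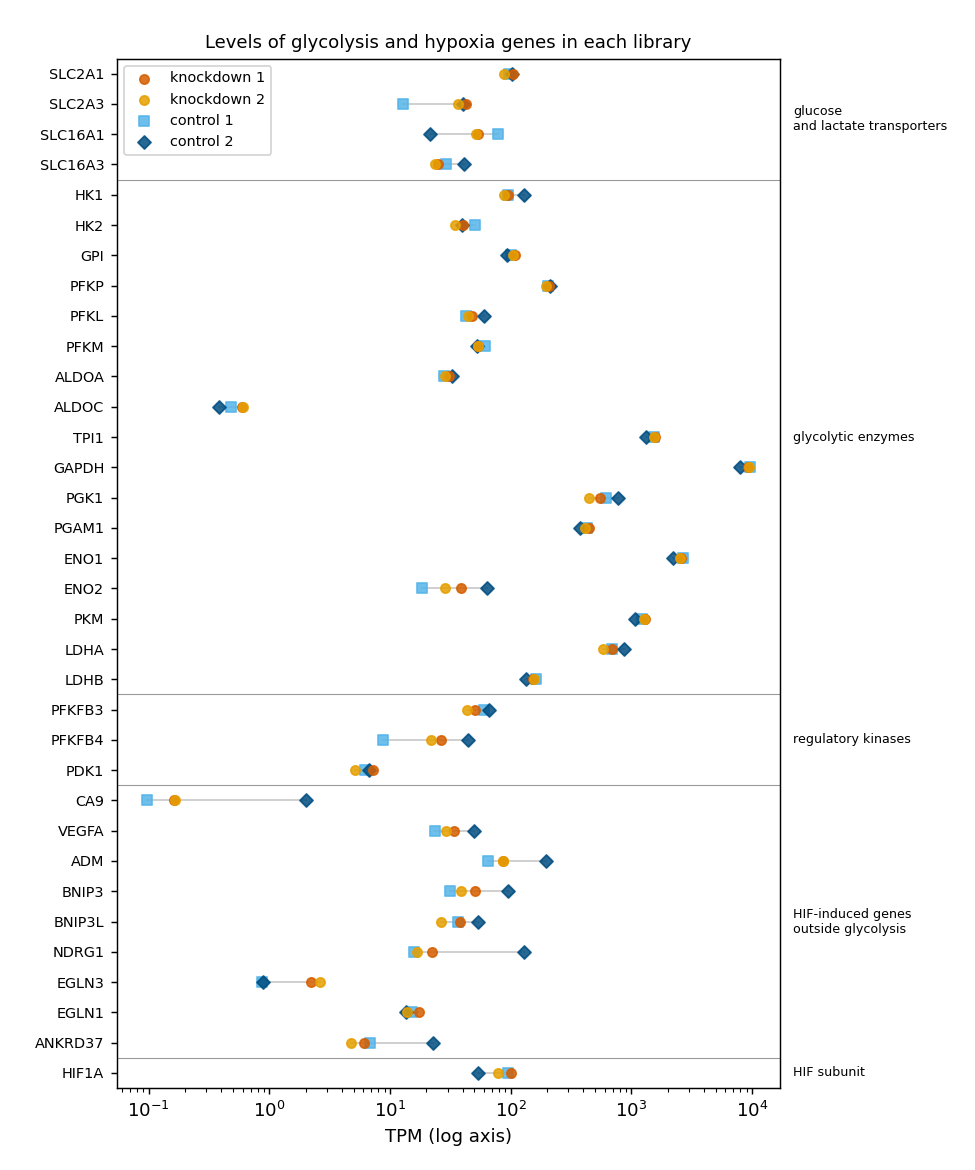
Level of each of the 34 genes in each library, in TPM on a log axis, grouped by role. Circles are the knockdown libraries, the square control 1 and the diamond control 2. Most enzymes have 4 nearly coincident points, while for genes such as NDRG1, ADM, PFKFB4 and ENO2 control 2 stands to the right of the other libraries.

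In CPM, several of the most abundant glycolytic enzymes were close to level across the 4 libraries. This depends on the scaling, since in TPM control 2 was the lowest library for GAPDH, ENO1, TPI1 and PKM. PGK1, LDHA, HK1, PFKL and ENO2, described further on, were highest in control 2. GAPDH, which oxidises glyceraldehyde phosphate, was at 9210 and 9461 TPM in knockdown, against 9574 and 7906 TPM in control. It alone supplied 53.8% and 55.8% of the summed TPM of the 17 enzymes in knockdown and 54.7% and 51.4% in control 1 and control 2. The enolase ENO1, which makes phosphoenolpyruvate, followed with 2584 and 2502 TPM in knockdown and 2668 and 2228 TPM in control. Scaled across libraries, GAPDH had a log2 fold change of 0.02 with a standard error of 0.14, and ENO1 one of −0.02 with a standard error of 0.14. The triose phosphate isomerase TPI1, the phosphoglycerate mutase PGAM1, the phosphoglucose isomerase GPI, the lactate dehydrogenase subunit LDHB and the pyruvate kinase PKM, the enzyme of the last step to pyruvate, had log2 fold changes between −0.0054 and 0.07, all within 1 standard error of 0. GAPDH, PGAM1 and LDHA have 62, 13 and 6 pseudogenes by name in GENCODE release 29, so reads of such near copies may have been lost or shared.

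Over the 17 enzymes the median log2 fold change was −0.13, and the fold changes ran from −0.59 to 0.41, beside a median of −0.0057 over all tested genes. ALDOC, the highest of them, passed the low-count filter only through its knockdown libraries, with 12 and 12 counts there and 8 and 8 in control. Against control 1 alone the median difference in log2 CPM was 0.04, and against control 2 alone −0.19. The enzymes summed to 17102 and 16941 TPM in knockdown, against 17503 and 15374 TPM in control. The aldolase ALDOA lay at only 27.9 to 32.5 TPM in all libraries. Its exons overlap another protein-coding gene on the same strand, AC093512.2, so its counts are uncertain. Exons of GPI, LDHB, PGK1 and PFKFB4 likewise overlap those of AC092073.1, AC010197.2, ATP7A and UCN2 on the same strand. The phosphofructokinase forms PFKP and PFKM had log2 fold changes of −0.13 and −0.15. The log2 difference of PFKP was 0.05 against control 1 and −0.30 against control 2, and that of PFKM −0.12 and −0.19. PFKP, the platelet form, held 67.3% and 66.6% of the phosphofructokinase TPM in knockdown, against 66.2% and 65.4% in control.

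A subset of enzymes was higher in control 2 than in the other libraries. The phosphoglycerate kinase PGK1, the first ATP-making step, had 894 and 760 CPM in knockdown, against 987 and 1506 CPM in control. Its knockdown libraries lay below both controls, with a log2 fold change of −0.59, a standard error of 0.25 and an adjusted p of 0.409 by edgeR. LDHA, the subunit that favours lactate formation, was at 1265 and 1113 CPM in knockdown, against 1236 and 1890 CPM in control. The hexokinase HK1 and the phosphofructokinase PFKL showed the same order, with knockdown close to control 1 (log2 differences of −0.01 and 0.15) and below control 2 (−0.72 and −0.61). HK2, the hexokinase often raised in tumours, did not follow it, with 73.7 and 66.3 CPM in knockdown against 91.2 and 86.1 CPM in control. Among the 17 enzymes, only ENO2 differed between the controls by more than 2-fold.

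ENO2, the neuronal-type enolase and a known HIF target, had 49.9 and 38.6 CPM in knockdown, against 23.3 and 97.9 CPM in control. The knockdown libraries lay between the controls, so that the log2 difference was 0.91 against control 1 and −1.16 against control 2. Its share of the enolase TPM was 1.47% and 1.13% in knockdown, against 0.682% in control 1 and 2.78% in control 2.

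**Figure D2:**
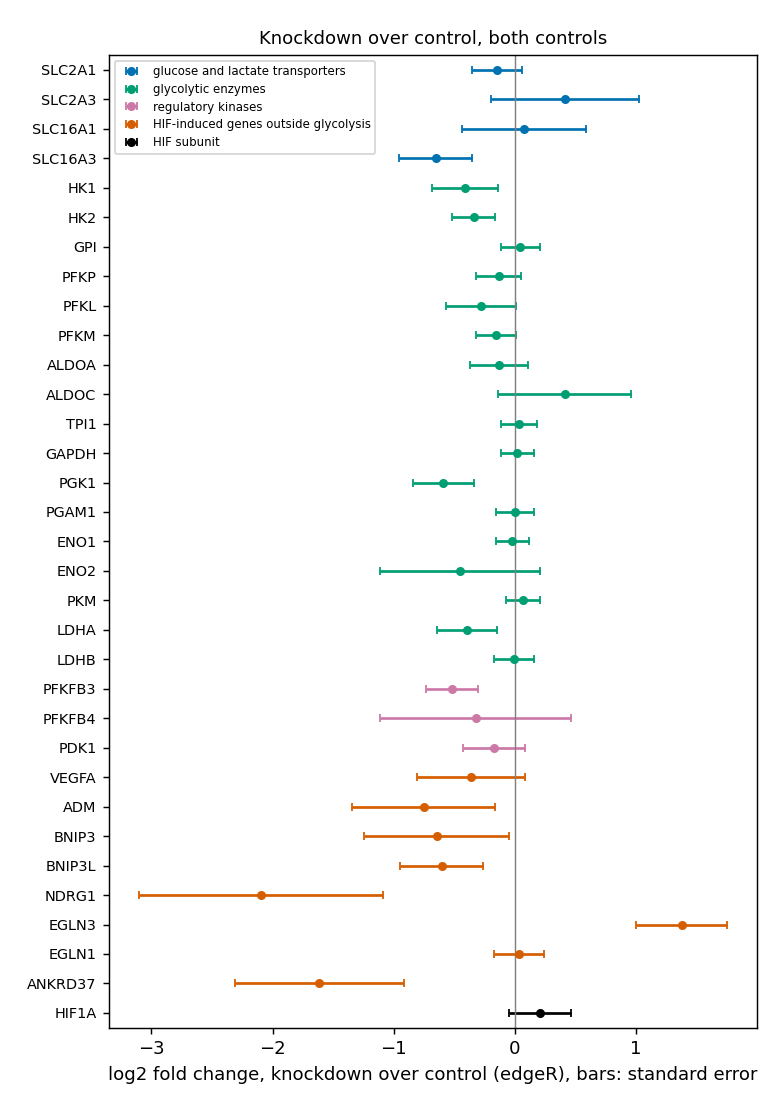
Log2 fold change of the 33 tested genes, knockdown over control, from the edgeR fit on all 4 libraries, with bars of 1 standard error and colours by role. The bars of most enzymes are short and reach 0, those of NDRG1, PFKFB4, ENO2 and SLC2A3 are long, and EGLN3 stands at 1.38.

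The transporters differed in which library stood apart. SLC2A1, the basal glucose transporter, was at 148 and 131 CPM in knockdown, against 136 and 174 CPM in control. SLC2A3, a glucose transporter of high affinity, had 77.8 and 69.8 CPM in knockdown, against 22.9 and 88.1 CPM in control. Here control 1 was the low library, and SLC2A3 made up 28.98% and 29.33% of the summed TPM of SLC2A1 and SLC2A3 in knockdown, against 11.6% in control 1 and 28.3% in control 2. The lactate transporters differed between the controls in opposite directions. SLC16A1, which carries lactate either way, had 86.3 and 85.9 CPM in knockdown, against 123 and 40.6 CPM in control. SLC16A3, the HIF-induced lactate exporter, had 67.2 and 66.6 CPM in knockdown, against 77.0 and 134 CPM in control. SLC16A1 supplied 68.5% and 68.6% of the summed TPM of SLC16A1 and SLC16A3 in knockdown, against 73.0% in control 1 and 33.95% in control 2. SLC16A3 overlaps CSNK1D in its exons on the opposite strand, and the strand setting of the counting is unknown, so its level is uncertain. The same holds for TPI1, PFKM and BNIP3L, whose exons overlap SPSB2, SENP1 and PNMA2 on the opposite strand.

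Of the regulatory kinases, PFKFB3 and PFKFB4 make the fructose bisphosphate that activates phosphofructokinase, and PDK1 inhibits pyruvate dehydrogenase. PFKFB4 had 48.6 and 41.8 CPM in knockdown, against 15.9 and 97.3 CPM in control. Its knockdown libraries lay between the controls, 2.84-fold above control 1 on average and at 0.464 of control 2. PFKFB3 was at 93.5 and 83.2 CPM in knockdown, against 109 and 144 CPM in control, a log2 fold change of −0.52 with a standard error of 0.21 and an adjusted p of 0.4 by edgeR. PDK1 was at 32.1 and 23.9 CPM in knockdown, against 27.6 and 35.7 CPM in control, with overlapping libraries.

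The HIF-induced genes outside glycolysis gave the widest spread between controls. NDRG1, a stress-response gene strongly induced by hypoxia, had 66.0 and 51.5 CPM in knockdown, against 45.6 and 458 CPM in control. It was thus 10.04-fold higher in control 2 than in control 1, while knockdown stood 1.29-fold above control 1. With both controls, NDRG1 had a log2 fold change of −2.10 (adjusted p = 0.455 by edgeR), with a standard error of 1.011. ADM, which encodes the vasodilator peptide adrenomedullin, had 60.0 and 62.6 CPM in knockdown, against 44.6 and 162 CPM in control. VEGFA, the angiogenic growth factor, had 147 and 131 CPM in knockdown, against 101 and 257 CPM in control. BNIP3, a mitophagy receptor with 39 pseudogenes by name, had 81.6 and 64.7 CPM in knockdown, against 49.2 and 180 CPM in control. For NDRG1, ADM, VEGFA and BNIP3 alike, the knockdown libraries lay above control 1 and below control 2.

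CA9, the membrane carbonic anhydrase used as a hypoxia marker, had 2 and 2 counts in knockdown, against 1 and 26 counts in control. It did not pass the low-count filter, which left 8 of the 9 genes tested. A count of 3 or fewer lies within the limit that a count of 0 allows, 0.117 to 0.139 CPM, so CA9 was detected above that limit in control 2 only. Its exons overlap ARHGEF39 on the opposite strand, so these few counts are uncertain. ANKRD37, a small ankyrin repeat gene, had 4.14 and 3.34 CPM in knockdown, against 4.53 and 18.4 CPM in control. Its log2 fold change of −1.62 with a standard error of 0.70 (adjusted p = 0.417 by edgeR) came mostly from control 2, against which the log2 difference was −2.28, compared with −0.28 against control 1. Its exons overlap UFSP2 on the opposite strand. BNIP3L, the paralog of BNIP3, was at 47.6 and 34.7 CPM in knockdown, against 45.1 and 80.1 CPM in control.

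Because HIF binds DNA at a core of ACGTG or GCGTG, windows of 300 bases around the RefSeq starts (250 bases before to 50 after, GRCh38.p14) were searched for both on both strands. A CACGTG is its own reverse complement and counts on each strand. Windows were found for 29 of the 34 genes and not for SLC2A3, SLC16A1, VEGFA, BNIP3L and NDRG1. Of the 56 windows of these genes 22 held ACGTG, beside 21.4% of all 35116 windows, and 22 held GCGTG, beside 36.5%. Of the 37 enzyme windows 15 held ACGTG and 14 held GCGTG, and of the 6 windows of HIF-induced genes outside glycolysis 4 held ACGTG and 2 held GCGTG. EGLN3 held neither in its window. The following stretches of the 250 bases before the start are shown for some of the genes that were highest in control 2 and held ACGTG. Other genes that met both conditions, among them ALDOA, PFKFB3, SLC16A3 and PFKP, are not shown. ACGTG or its complement CACGT is in capitals. The stretch is 30 bases where an annotated exon covers the site and otherwise the run up to the first exon. For ANKRD37 this shows 2 of 3 matches and for LDHA 2 of 5, and for the other genes all of those in the 250 bases.
CA9 (chr9:35673898-35673927, plus strand): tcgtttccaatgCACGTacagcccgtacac
ANKRD37 (chr4:185396667-185396696, plus strand): ggcgccgggctcCACGTGccagtgtttgtg
BNIP3 (chr10:131982014-131982173, minus strand): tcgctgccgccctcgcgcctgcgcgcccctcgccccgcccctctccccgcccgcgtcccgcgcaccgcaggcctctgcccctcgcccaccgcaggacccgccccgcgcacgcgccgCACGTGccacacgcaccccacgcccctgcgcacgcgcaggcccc
ENO2 (chr12:6914450-6914479, plus strand): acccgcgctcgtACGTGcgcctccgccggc
PGK1 (chrX:78103998-78104173, plus strand): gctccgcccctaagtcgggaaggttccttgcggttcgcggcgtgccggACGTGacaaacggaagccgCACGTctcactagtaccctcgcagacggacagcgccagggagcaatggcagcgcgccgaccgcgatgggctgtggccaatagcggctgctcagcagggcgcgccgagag
LDHA (chr11:18394313-18394387, plus strand): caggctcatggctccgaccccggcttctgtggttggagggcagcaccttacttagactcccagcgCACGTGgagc
The genes shown were picked for both conditions, so they cannot show whether ACGTG goes with a high level in control 2, which was not tested. No window of ADM, PFKFB4, HK1 or PFKL, also highest in control 2, held ACGTG. Those of HK2, GAPDH and ALDOC, with close to equal controls, did. These matches describe the letters of the windows, and no measurement of HIF binding was made in these cells.

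**Figure D3:**
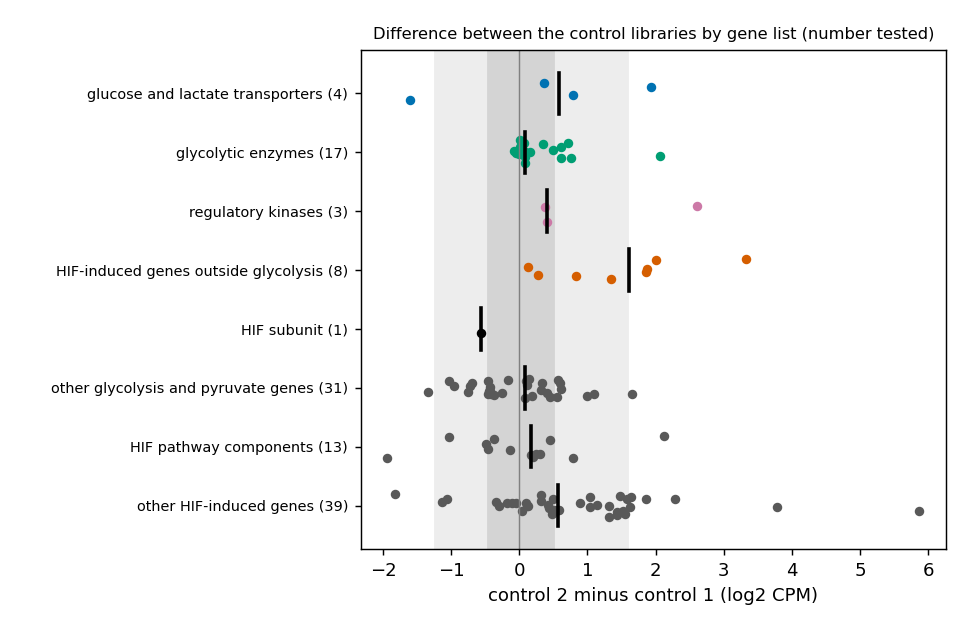
Control 2 minus control 1 in log2 CPM for each tested gene, by role or list. Vertical bars are list medians, the dark band holds the middle 50% of all tested genes and the light band the middle 90%. The 8 HIF-induced genes outside glycolysis have a median of 1.60 and the 17 enzymes a median of 0.09.

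Set beside each other, the HIF-induced genes outside glycolysis and the enzymes differed in how far the controls stood apart. The median of control 2 minus control 1 in log2 CPM was 1.60 over the 8 tested HIF-induced genes, with a range of 0.12 to 3.32, and 0.09 over the 17 enzymes, with a range of −0.08 to 2.07. Control 2 was more than 2-fold above control 1 for 5 of the 8 and for 1 of the 17, beside 12% of all tested genes. It was more than 2-fold below control 1 for 0 of each, beside 8.19%. In the knockdown pair the median size of the difference was 0.31 for the HIF-induced genes and 0.07 for the enzymes. The HIF-induced genes summed to 256 and 218 TPM in knockdown, against 194 TPM in control 1 and 560 TPM in control 2. The difference between the controls, each of them 1 library, was not tested.

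The contrast with knockdown accordingly depended on the control used. The median log2 fold change of the 8 HIF-induced genes was −0.63 with both controls. Their median difference in log2 CPM was 0.41 against control 1 alone and −1.14 against control 2 alone. Of the 8, 6 lay above control 1 and 7 below control 2, beside 6529 and 6268 of all 12965 tested genes. By the mean of log2 CPM, 3 members were more than 2-fold above control 1 and 0 were more than 2-fold below it. Over all tested genes these shares were 7.54% and 2.98%. Likewise 2 members were more than 2-fold above control 2 and 6 were more than 2-fold below it, beside 10.6% and 9.87%. When control 1 was the only control in the edgeR fit, 8 members were called higher and 4 lower, beside 18% and 16.6% of all genes. When control 2 was the only control, 3 were called higher and 20 lower, beside 27.9% and 28% of all genes. The members called lower in the control 2 fit include CA9 (log2 fold change −3.77), which was not tested with both controls. CA9 passed the low-count filter of that fit only through its count in control 2. Fits with a single control take the spread from the knockdown pair and apply it to that control. The biological coefficient of variation was 0.0776 in the knockdown pair and 0.393 in the control pair. These fits therefore understate the spread of the controls, and their calls are too many. Which of the controls is closer to the usual state of the line was not tested.

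**Figure D4:**
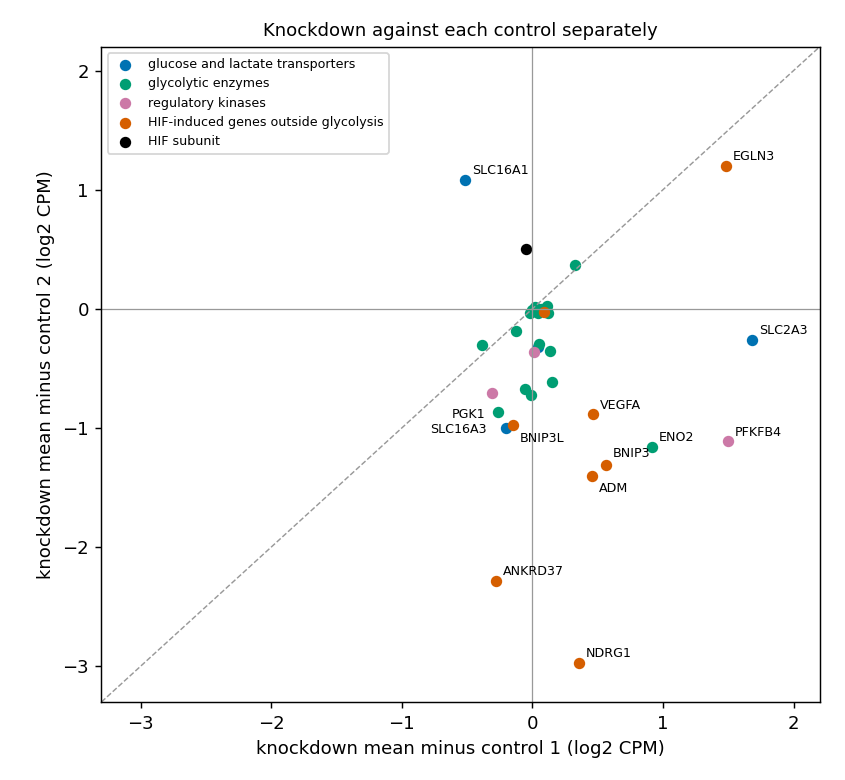
Mean of the knockdown libraries minus control 1 (horizontal) and minus control 2 (vertical), in log2 CPM, for the 33 tested genes, coloured by role. On the dashed diagonal both controls give the same difference. Most enzymes lie near the origin, NDRG1, ADM, BNIP3, VEGFA, ENO2 and PFKFB4 lie at lower right with opposite signs, and EGLN3 lies at upper right near the diagonal.

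EGLN3 was the 1 HIF-induced gene outside glycolysis with both knockdown libraries above both controls. It encodes a prolyl hydroxylase that marks HIF alpha subunits for destruction and is itself induced by HIF. The gene lies on the minus strand at chr14:33924231-34462774 of GRCh38 by GENCODE release 29. EGLN3 had 125 and 146 counts in knockdown, against 41 and 52 counts in control. That was 4.88 and 6.09 CPM in knockdown, against 1.90 and 2.32 CPM in control, with no overlap between the groups. The means were 5.48 ± 0.855 CPM in knockdown and 2.11 ± 0.300 CPM in control (SD, n = 2 each). The resulting log2 fold change of 1.38 (standard error 0.37) had adjusted p values of 0.28 by edgeR and 0.143 by DESeq2. The log2 difference of EGLN3 was 1.48 against control 1 and 1.20 against control 2. HK2, PGK1 and PFKFB3 were lower than either control. Their log2 differences against control 1 and control 2 were −0.38 and −0.30 for HK2, −0.26 and −0.87 for PGK1, and −0.31 and −0.71 for PFKFB3. Over the alternative runs with all 4 libraries, EGLN3's adjusted p lay between 0.143 by DESeq2 and 0.309 by edgeR with the replicate block. Runs with a library left out moved it both below and above these values. At about 2.41 TPM in knockdown it remained among the lowest of the members. EGLN1, the main oxygen sensor of the family, lay at 38.0 and 31.9 CPM in knockdown, against 32.6 and 35.5 CPM in control.

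HIF1A was not highest in control 2, where the HIF-induced genes outside glycolysis other than EGLN3 and EGLN1 were. It had 156 and 127 CPM in knockdown, against 146 and 99.2 CPM in control, so that control 2 held the lowest value. For HIF1A the log2 fold change of 0.21 (standard error 0.25) had an adjusted p of 0.757 by edgeR. HIF alpha is regulated mainly as a protein, which these data do not measure.

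Further genes of the pathway were read from lists of 98 symbols, all found, of which 83 were tested. Of 39 other HIF-induced genes tested, control 2 was more than 2-fold above control 1 for 17 and below it for 3, beside the 12% and 8.19% of all tested genes given above. The median of their log2 fold changes was −0.16 with both controls, and their median difference in log2 CPM was 0.20 against control 1 and −0.33 against control 2, so its sign depended on the control. ANGPTL4, a secreted regulator of lipoprotein lipase, had 36.3 and 16.4 CPM in knockdown, against 7.31 and 432 CPM in control, and DDIT4, an mTOR inhibitor, had 114 and 83.3 CPM in knockdown, against 50.3 and 245 CPM in control. The 31 other genes of glycolysis and pyruvate use had a median of 0.00084 with both controls (−0.03 against control 1 and 0.06 against control 2), with control 2 more than 2-fold above control 1 for 2 and below it for 2. The 13 components of the HIF pathway had a median of −0.17 with both controls (−0.16 against control 1 and −0.07 against control 2).

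The genes given next are among those of these lists with the smallest p in each direction, a choice that favours genes whose controls lie on the same side of knockdown. PDHA1, the catalytic subunit of pyruvate dehydrogenase that PDK1 inhibits, had 43.8 and 48.1 CPM in knockdown, against 114 and 126 CPM in control, with a log2 fold change of −1.39, a standard error of 0.18 and adjusted p values of 0.146 by edgeR and 1.1e-05 by DESeq2. The lipoprotein receptor gene VLDLR had 14.6 and 10.6 CPM in knockdown, against 23.6 and 48.7 CPM in control (adjusted p = 0.28 by edgeR and 0.0164 by DESeq2). On the higher side, the heme oxygenase gene HMOX1 had 45.2 and 56.7 CPM in knockdown, against 23.6 and 25.6 CPM in control (adjusted p = 0.22 by edgeR and 0.0188 by DESeq2). The membrane protein gene TMEM45A had 19.0 and 13.3 CPM in knockdown, against 2.54 and 5.31 CPM in control (adjusted p = 0.236 by edgeR and 0.00267 by DESeq2). The glucose transporter gene SLC2A6 had 49.1 and 57.8 CPM in knockdown, against 32.3 and 23.7 CPM in control (adjusted p = 0.268 by edgeR and 0.0736 by DESeq2). EPAS1, the gene of another HIF alpha subunit, had 132 and 131 CPM in knockdown, against 82.1 and 94.6 CPM in control, a log2 fold change of 0.57 with a standard error of 0.18 and an adjusted p of 0.311 by edgeR.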

How the data were processed

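Whole-number counts per gene, not normalized, were deposited for 4 libraries. Trimmomatic, HISAT2, Subread and DESeq2 were used on GRCh38, per the submitters' processing notes, with annotation and strand setting not given in the sources used here. The authors also deposited a length-scaled signal under the name TPM. It was divided by 10, since its column totals exceed those of TPM by that factor. The authors' deposited log2 fold changes, p-values and mean normalized signal served for no test.

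The main test was that of edgeR 4.0.16 (R 4.3.3, quasi-likelihood, TMM scaling, default low-count filter with a minimum count of 10 and a total of 15, no covariate), two-sided, with Benjamini-Hochberg adjustment over 12965 genes and a threshold of 0.05. Standard errors are the log2 fold change over the root of F. CPM used TMM-scaled totals. Differences against one control are in log2 CPM with a prior count of 2. DESeq2 1.42.0 and limma 3.58.1 (pseudocount of 1 on TPM) were alternatives, and the edgeR test was checked on simulated counts. Positions are from GENCODE release 29. The genes and lists were chosen with earlier results of these data known. Values per library were due for members with an unadjusted p under 0.05, for those whose differences against the controls had opposite signs and lay more than 1 apart on the log2 scale, and for HIF1A, and from the other lists for the 3 genes with the smallest p in each direction. One of these is not reported here. Other genes given by library, among them PGK1, LDHA, CA9, ANKRD37, ANGPTL4, DDIT4 and EPAS1, were chosen after their values were seen. Depth was 21466327 to 24487126 counts per library, and limits from counts cover counting error only. Figures were drawn with matplotlib 3.10.9.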

Additional observations from a re-analysis of the deposited data

How the results depend on the processing

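By edgeR 0 genes were called in either direction, also with RLE scaling, total counts, a stricter filter, limma-voom, limma on log2(TPM + 1) and a threshold of 0.01. DESeq2 called 209 higher and 264 lower, no low-count filter 16 and 3, and the replicate block 160 and 124. Members called were 0 under each of these. The libraries of the same number did not deviate together (r = −0.03 across genes), so the block is only a hint, and EGLN3 had an adjusted p of 0.309 under it. With a library left out, calls ranged from 12 to 3710 higher and 3 to 3729 lower over all genes, and from 0 to 8 higher and 0 to 20 lower among members. The median ranged from −0.20 to 0.040 for enzymes and from −1.31 to 0.41 for HIF-induced genes outside glycolysis. The −1.31 and the highest number of lower members come from the fit with control 2 alone. CA9 entered that fit through its count in control 2. For the 8 genes without CA9, the median difference in log2 CPM against control 2 was −1.14. Total counts moved the median of all genes to 0.11, the enzymes to −0.0037 and the HIF-induced genes to −0.48, and limma on TPM moved the enzymes to −0.025. The causes were not tested.

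Signs turned with a library left out for 20 members. Their log2 fold changes then ranged from −2.97 to 0.37 for NDRG1, −1.41 to 0.46 for ADM, −1.31 to 0.57 for BNIP3, −1.16 to 0.93 for ENO2, −1.12 to 1.504 for PFKFB4, −0.90 to 0.47 for VEGFA, −0.62 to 0.15 for PFKL, −0.52 to 1.07 for SLC16A1, −0.40 to 0.026 for PDK1, −0.37 to 0.14 for ALDOA, −0.33 to 0.042 for SLC2A1, −0.31 to 0.047 for PFKP, −0.27 to 1.69 for SLC2A3, −0.10 to 0.16 for EGLN1, −0.046 to 0.50 for HIF1A, −0.047 to 0.040 for PGAM1, −0.049 to 0.039 for LDHB, −0.043 to 0.12 for GPI, −0.029 to 0.069 for GAPDH and −0.010 to 0.062 for TPI1. PFKFB4 also turned to 0.19 by limma-voom, 0.24 by limma on TPM and 0.18 with the block. PGAM1 turned to −0.016 with RLE scaling and DESeq2 and −0.0069 without a filter, ENO1 to 0.093 with total counts and 0.061 by limma on TPM, and LDHB to 0.11 and 0.076. EGLN3 stayed positive under every alternative run, from 0.86 by limma on TPM to 1.53.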

Other observations

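In the authors' deposited table the log2 fold changes, coded control over knockdown, had the opposite sign to those computed from the deposited counts for 17 of the 33 tested members. For ANKRD37 the authors' deposited table gives −1.76 with an adjusted p of 0.0179, higher in knockdown, while the counts were 106 and 80 in knockdown and 98 and 412 in control. The mean normalized count in the authors' deposited table was above the highest of the 4 deposited counts for 15 of the 34 members, such as 18485 for NDRG1, whose highest count was 10254, and 154 for ALDOC, whose highest count was 12. Which libraries entered it is not stated. For EGLN3 the authors' deposited table gives −1.36, the same direction as the counts.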
